A study of Mus musculus with 26 samples.

Results

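In mouse embryonic stem (ES) cells, Mettl3 knockdown gave 364 positive and 149 negative calls of genes with an altered 8 h change. These counts came from a fit that estimated the spread over all arrays of the time course. The comparison rested on 8 of the 26 arrays in the series: 2 arrays of Mettl3 knockdown at 8 h, 2 of Mettl3 knockdown at 0 h, 2 of scramble control at 8 h and 2 of scramble control at 0 h. With these 8 arrays fitted alone, 46 genes were called in the positive and 8 in the negative direction. For each gene the 8 h change of the scramble cells was subtracted from the 8 h change of the Mettl3 knockdown cells. This difference of 2 log2 changes is called the interaction here, and a positive value means a larger rise or a smaller fall in Mettl3 knockdown. The cells were of the J1 line, grown on irradiated mouse fibroblast feeders with serum and leukemia inhibitory factor (LIF), and their polyA RNA was read on Affymetrix Mouse Gene 2.0 ST arrays. The labels name lentiviral shRNA with puromycin selection as well as transfected siRNA for the knockdown, and they call the scramble cells wild type. What the cells were incubated with for 0, 4 or 8 h beyond these constructs is not given in the labels. The same experiment held 4 h arrays and Mettl14 knockdown arrays, and a separate repeat set held 0 h arrays of Mettl3 knockdown and its own scramble control.

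Mettl3 is the catalytic subunit of the nuclear complex that writes N6-methyladenosine (m6A) on messenger RNA, and Mettl14 is its RNA-binding partner. Wtap holds the pair in nuclear speckles, reader proteins of the YTH family bind the mark, and Alkbh5 and Fto can remove it. In ES cells m6A is known to shorten the life of many transcripts, among them mRNAs of pluripotency factors and of developmental regulators. Transcription and decay both set the level of a transcript, and an array reads the level alone.

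The labels give 2 siRNA target sites for Mettl3, a gene on mouse chromosome 14. They are shown because the knockdown defines the comparison, and capitals mark bases 12 to 18 counted from the 5′ end, which pair with the seed (bases 2 to 8) of a fully complementary guide strand.
siRNA target 1: ggactgcgatgTGATTGTa
siRNA target 2: gacgaattatcAATAAGCa

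The probe set that reports Mettl3 is listed for Mettl3 and Tox4 together. It read 9.09 and 9.20 at 0 h and 8.04 and 8.02 at 8 h in the Mettl3 knockdown arrays, against 11.05 and 11.03 at 0 h and 10.65 and 10.71 at 8 h in the scramble arrays (log2). The groups did not overlap, and the knockdown level was 26.9% of the scramble level at 0 h and 16% at 8 h. A probe set for Tox4 alone differed by 0.10 at 0 h and by -0.13 at 8 h. The knockdown signal was thus lower relative to scramble at 8 h than at 0 h, and its part in the values below was not tested.

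Replicate arrays of the time course correlated with r between 0.9869 and 0.9923. The 8 ES cell markers had a median log2 level of 11.75 and 11.76 at 0 h and 10.11 and 10.09 at 8 h in Mettl3 knockdown, against 12.29 and 12.38 at 0 h and 10.58 and 10.38 at 8 h in scramble. Only 7 of the 8 were bright enough to be tested, and the markers did not fall alike. Nanog changed by -0.03 in Mettl3 knockdown and 0.03 in scramble, and Sox2 by -2.66 and -2.69. Of 26 feeder fibroblast markers 25 were on the array, with medians of 7.10 and 7.12 at 0 h and 7.56 and 7.56 at 8 h in Mettl3 knockdown and of 7.04 and 7.11 at 0 h and 7.16 and 7.46 at 8 h in scramble. Interactions of the 20 feeder markers that were tested lay between -0.34 and 0.27 with a median of -0.08, and none passed. RMA gives the probe values of each array the same distribution, so every change is relative to the other genes on the array. The medians of the tested genes still differed somewhat. At 8 h they were 8.26 and 8.20 in Mettl3 knockdown and 8.12 and 8.08 in scramble. At 0 h they were 8.19 and 8.25 in Mettl3 knockdown and 8.21 and 8.19 in scramble. Fewer cells of a type and less RNA per cell cannot be told apart in such bulk samples. The labels call the paired arrays biological replicates without naming separate cultures, so the p-values speak only of the spread among them, which may be technical.

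Of 14787 genes tested, 364 had a higher interaction (2.46%) and 149 a lower one (1.01%) at an adjusted p below 0.05 in limma. At least a 2-fold ratio between the changes was reached by 12 of the higher genes and 8 of the lower ones. The changes over time were far broader than the interaction: 5463 genes rose (36.9%) and 2832 fell (19.2%) between 0 and 8 h in Mettl3 knockdown, and 5799 rose (39.2%) and 3197 fell (21.6%) in scramble. The balance of rises and falls depended on the scaling. With a list of long-lived transcripts set to the same median on all arrays, falls outnumbered rises. Mettl3 knockdown then had 2612 rises and 4443 falls, and scramble 1275 and 5760. The median interaction over all genes was 0.01, with a median change of 0.11 in Mettl3 knockdown and 0.15 in scramble. The median standard error of an interaction was 0.125. The smallest values that passed were 0.26 and -0.27, but a gene with a larger error needed a larger value. Rbm15b with 0.42 ± 0.11, for example, did not pass (adjusted p = 0.061 in limma).

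**Figure D1:**
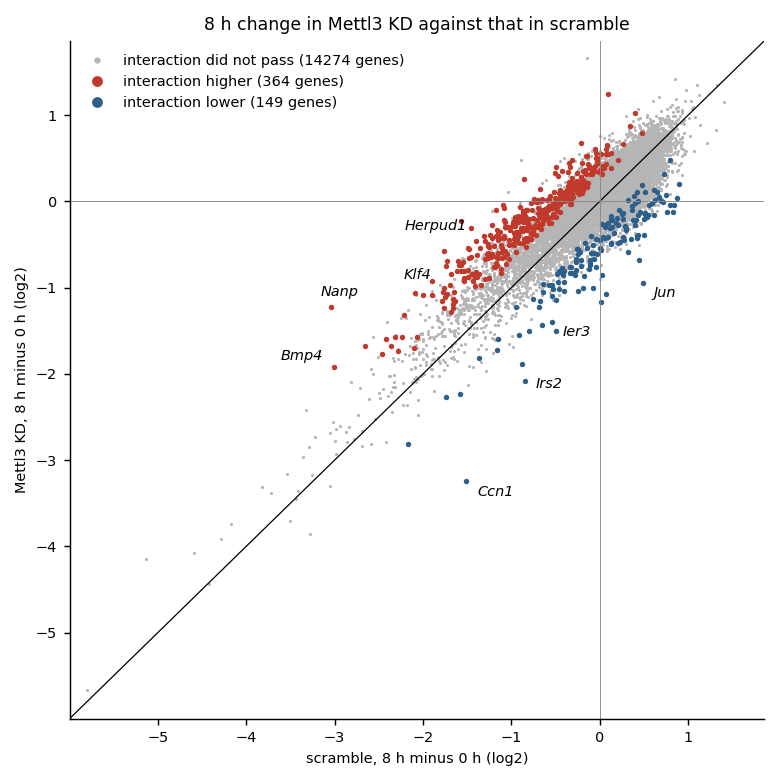
Each point is 1 of 14787 genes, placed by its log2 change from 0 to 8 h in Mettl3 knockdown (vertical axis) and in scramble (horizontal axis), and the diagonal marks equal changes. The 364 genes with a higher interaction (red) lie above the diagonal and mostly left of 0, where scramble cells lost the transcript, and the 149 genes with a lower interaction (blue) lie below the diagonal on both sides of 0.

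The number of calls depended on the spread shared with the other arrays and on single arrays. With the 8 arrays fitted alone, 46 genes were higher and 8 lower. The counts moved by more than 1.5 times on leaving out Mettl3 knockdown 0 h replicate 1 (192 and 70), Mettl3 knockdown 8 h replicate 1 (166 and 56), scramble 0 h replicate 1 (173 and 69), scramble 0 h replicate 2 (211 and 71) or scramble 8 h replicate 2 (200 and 58). All 364 higher and all 149 lower genes had the same sign in each of the 8 fits without an array. These genes passed because the same arrays set them far from 0, so a kept sign is no separate evidence. The fit of the 8 arrays alone leaves every interaction value as it was and differs in the estimate of the spread, so it says nothing about sign. Of the 75 named genes that passed, 15 passed in each of the 18 alternative fits: S1pr2, Phospho2, Chst12, Rpp25l, Hs6st1, Klf4, Nxt1, Rpp38, Tbx3, Wtap, Herpud1, Ccn1, Jun, Irs2 and Ier3.

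The share of higher genes among the calls was 71% on the deposited scale. It was 92.6% (1045 higher, 84 lower) when a list of long-lived transcripts was set to the same median on all arrays, which moved the median interaction of all genes by 0.104. It was 59.3% (272 higher, 187 lower) after another quantile normalization of the tested genes. The predominance of higher calls therefore held under each of these scalings, while its size did not.

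The higher genes were mainly transcripts that scramble cells lost. In scramble 323 of the 364 fell (88.7%), 35 did not pass and 6 rose. In Mettl3 knockdown 183 of the 364 fell, 105 did not pass and 76 rose. Because the scramble change is a term of the interaction, these counts describe the higher genes and are no separate evidence. Among the 323 genes, the median level left at 8 h was 84.4% of the 0 h level in Mettl3 knockdown and 55.9% in scramble, on the relative scale of the arrays. The median change of all 364 was -0.18 in Mettl3 knockdown and -0.76 in scramble.

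The lower genes were of mixed origin. In Mettl3 knockdown 108 of the 149 fell, 38 did not pass and 3 rose, and in scramble 52 fell, 35 did not pass and 62 rose. Of those 62, 36 came from the third of genes with the lowest signal, which held 56 of the lower genes and 22 of the higher ones. The median change was -0.49 in Mettl3 knockdown and 0.04 in scramble. Seen at each time on its own, 2850 genes were higher (19.3%) and 2744 lower (18.6%) in Mettl3 knockdown than in scramble at 0 h, and 3519 were higher (23.8%) and 2815 lower (19%) at 8 h.

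Nanp, the phosphatase of sialic acid synthesis, had the highest interaction among the named genes. Its log2 level was 7.84 and 8.15 at 0 h and 7.03 and 6.52 at 8 h in Mettl3 knockdown, against 8.18 and 7.66 at 0 h and 4.90 and 4.85 at 8 h in scramble. The groups overlapped at 0 h, and at 8 h both knockdown arrays lay above both scramble arrays. The change was -1.22 in Mettl3 knockdown and -3.04 in scramble, an interaction of 1.82 ± 0.33 (SE, adjusted p = 0.0112). The call was lost without Mettl3 knockdown 0 h replicate 1, Mettl3 knockdown 8 h replicate 1 or scramble 0 h replicate 1, and with the 8 arrays alone. It was also lost with the mean of its probe sets in place of the brightest one, where the interaction was 1.04. The scramble levels at 8 h lay below 5.28, the lowest mean level of any tested gene over the time course, so the size of 1.82 rests on levels in the range of the genes left out as dim.

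S1pr2, a receptor for sphingosine 1-phosphate, showed the same shape with less scatter. It read 9.46 and 9.68 at 0 h and 8.94 and 9.04 at 8 h in Mettl3 knockdown, against 9.70 and 9.71 at 0 h and 8.03 and 7.85 at 8 h in scramble. Scramble arrays were slightly above the knockdown arrays at 0 h and clearly below them at 8 h. The interaction was 1.19 ± 0.11 (adjusted p = 0.00029), with 67% of the 0 h level left in Mettl3 knockdown and 29.4% in scramble.

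Phospho2, which encodes a phosphatase, read 8.71 and 8.77 at 0 h and 9.01 and 8.97 at 8 h in Mettl3 knockdown, against 8.40 and 8.43 at 0 h and 7.60 and 7.52 at 8 h in scramble. The knockdown arrays were above the scramble arrays at both times, by 0.32 at 0 h and 1.43 at 8 h. Its interaction of 1.11 ± 0.09 had an adjusted p of 0.000202.

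Rpp25l, Nxt1, Rpp38, Med18, Hs6st1 and Chst12 were also among the 14 highest named genes. Their levels at 0 h differed between the groups of the time course by 0.29 or less. In the repeat set at 0 h, Rpp25l (0.69), Chst12 (0.43), Nxt1 (0.35) and Med18 (0.34) were higher in Mettl3 knockdown. The repeat-set differences of Hs6st1 (0.14) and Rpp38 (0.07) did not pass. Rpp25l, related to an RNase P subunit, read 8.85 and 8.95 at 0 h and 8.85 and 8.86 at 8 h in Mettl3 knockdown, against 8.74 and 8.74 at 0 h and 7.62 and 7.66 at 8 h in scramble (interaction 1.05 ± 0.11, adjusted p = 0.00046). The 4 knockdown arrays lay close together, while the scramble arrays at 8 h lay below all others. Nxt1, a cofactor of mRNA export, read 8.80 and 8.94 at 0 h and 8.80 and 8.78 at 8 h in Mettl3 knockdown, against 8.58 and 8.59 at 0 h and 7.59 and 7.42 at 8 h in scramble (1.00 ± 0.10, adjusted p = 0.000441). Rpp38, an RNase P subunit, had 0.98 ± 0.14, but here both groups fell, with changes of -1.68 in Mettl3 knockdown and -2.66 in scramble. The Mediator subunit gene Med18 likewise fell in both, with changes of -0.93 in Mettl3 knockdown and -1.90 in scramble and an interaction of 0.97 ± 0.15.

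Hs6st1, which adds 6-O-sulfate to heparan sulfate, read 10.39 and 10.57 at 0 h and 9.80 and 9.78 at 8 h in Mettl3 knockdown, against 10.38 and 10.53 at 0 h and 8.78 and 8.66 at 8 h in scramble. The arrays coincided at 0 h and were separated by 1.07 at 8 h (interaction 1.04 ± 0.10, adjusted p = 0.00029). Chst12, a chondroitin 4-O-sulfotransferase, had a change of -0.10 in Mettl3 knockdown and of -1.17 in scramble (1.07 ± 0.15, adjusted p = 0.00348). Zscan12, a zinc finger gene of low signal, had 1.14 ± 0.27, and its call was lost in 7 of the 8 fits without an array.

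Within the m6A machinery, 2 of 19 tested genes passed, both higher (10.5%, beside 2.46% of all tested genes). Wtap read 9.47 and 9.39 at 0 h and 9.13 and 9.12 at 8 h in Mettl3 knockdown, against 9.50 and 9.41 at 0 h and 8.42 and 8.41 at 8 h in scramble. Its arrays overlapped at 0 h and were 0.71 apart at 8 h, an interaction of 0.74 ± 0.09 (adjusted p = 0.00124). The demethylase gene Alkbh5 had 0.33 ± 0.08 (adjusted p = 0.0405), a call lost in all 8 fits without an array. The writer-complex genes Cbll1 (0.39, adjusted p = 0.0801) and Rbm15b (0.42, adjusted p = 0.0610) did not pass, and Mettl14 had -0.10 with an adjusted p of 0.81. The readers Ythdf1, Ythdf3, Ythdc1 and Ythdc2 lay between -0.04 and 0.04, and the demethylase gene Fto had -0.14. The median of the 19 genes was 0.04, beside 0.01 over all genes.

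Other higher genes differed most between knockdown and scramble at 0 h and less at 8 h. The pluripotency list had 6 of 41 tested members higher (14.6%) and 1 lower (2.44%), beside 2.46% and 1.01% of all tested genes. The median interaction of the list was 0.07. Klf4, a factor of the naive pluripotency network, read 8.53 and 8.43 at 0 h and 7.27 and 7.56 at 8 h in Mettl3 knockdown, against 9.83 and 9.93 at 0 h and 7.84 and 7.73 at 8 h in scramble. Knockdown arrays were below scramble arrays at both times, with differences of -1.40 at 0 h and -0.37 at 8 h. The interaction was 1.03 ± 0.14 (adjusted p = 0.00262), as scramble cells kept 23.4% of their 0 h level and knockdown cells 47.8%.

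Klf2, a related naive-state factor, read 9.07 and 9.02 at 0 h and 7.94 and 7.99 at 8 h in Mettl3 knockdown, against 10.13 and 10.12 at 0 h and 8.39 and 8.07 at 8 h in scramble (interaction 0.82 ± 0.12, adjusted p = 0.00415). Tbx3, a T-box factor of the same network, had 0.82 ± 0.12 (adjusted p = 0.00409), with a difference from scramble of -1.17 at 0 h and -0.35 at 8 h. Fgf4, the growth factor that drives ES cells toward differentiation through ERK, read 10.37 and 10.39 at 0 h and 9.15 and 8.98 at 8 h in Mettl3 knockdown, against 11.19 and 11.13 at 0 h and 9.11 and 8.79 at 8 h in scramble. Its groups were separate at 0 h and overlapped at 8 h (0.90 ± 0.13, adjusted p = 0.00447). The remaining higher members, named after their values were seen, act in the LIF pathway: the feedback inhibitor Socs3 (0.72) and the receptor subunit Il6st (0.30). Stat3, the transcription factor of that pathway, was the lower member (-0.42), since its difference from scramble was -0.95 at 0 h and -1.36 at 8 h.

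The core factors did not pass. Nanog read 11.96 and 11.99 at 0 h and 11.96 and 11.94 at 8 h in Mettl3 knockdown, against 12.82 and 12.78 at 0 h and 12.86 and 12.80 at 8 h in scramble, an interaction of -0.06 ± 0.07 (adjusted p = 0.681). The knockdown arrays were below the scramble arrays by about the same amount at both times. Sox2 lost most of its signal in both groups, with 15.8% of the 0 h level left in Mettl3 knockdown and 15.5% in scramble, and its interaction was 0.02 ± 0.14. Pou5f1 had 0.32 ± 0.16 (adjusted p = 0.299), Esrrb 0.27 (adjusted p = 0.243) and Zfp42 0.24 (adjusted p = 0.152). Myc, an unstable transcript, kept 23.4% in Mettl3 knockdown and 23.7% in scramble, whereas its relative Mycn kept 30.9% and 23.3% in that order (interaction 0.40, adjusted p = 0.0333), a call lost in 6 of the 8 fits without an array.

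Bmp4, a ligand that sustains ES cell self-renewal and patterns mesoderm, read 9.94 and 10.06 at 0 h and 8.19 and 7.95 at 8 h in Mettl3 knockdown, against 11.28 and 11.27 at 0 h and 8.41 and 8.12 at 8 h in scramble. The groups were apart at 0 h, with a difference of -1.28, and overlapped at 8 h (interaction 1.08 ± 0.19, adjusted p = 0.00989). In the BMP and Id list 3 of 21 tested members were higher, namely Bmp4, the inhibitory Smad6 (0.48) and the target Id2 (0.49). Bmp2 was lower (-0.84). These shares were 14.3% and 4.76%, beside 2.46% higher and 1.01% lower over all tested genes. Smad6 lost its call in 6 of the 8 fits without an array. Fzd5, a Wnt receptor, had 0.95 ± 0.23 (adjusted p = 0.0444) and lost its call in 6 of the 8 fits without an array. Axin1, a scaffold of the complex that degrades beta-catenin, was the other higher member of 35 tested Wnt genes (0.54 ± 0.09, adjusted p = 0.00912). The Wnt list thus had 5.71% higher, beside the same 2.46%.

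**Figure D2:**
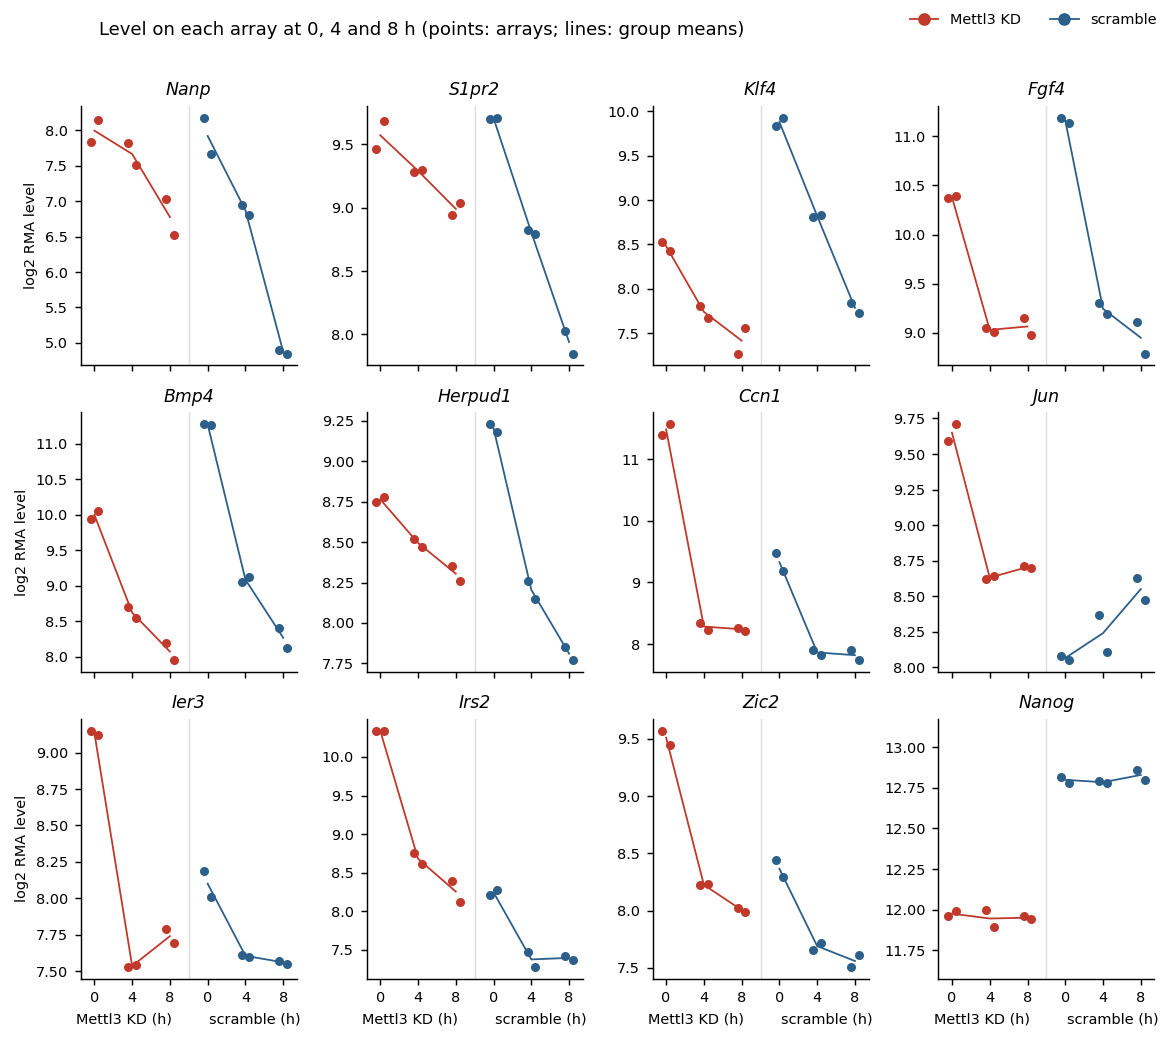
Log2 RMA level of 12 genes on each array at 0, 4 and 8 h, with Mettl3 knockdown on the left and scramble on the right of every panel; points are arrays and lines join the means of 2 arrays. Nanp and S1pr2 start together and separate, Klf4, Fgf4 and Bmp4 start lower in Mettl3 knockdown and draw near the scramble level, Ccn1, Jun, Ier3, Irs2 and Zic2 start higher and draw near it, and Nanog keeps its distance.

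Ccn1 and Jun, both members of the immediate-early list, had the lowest interactions among the named genes, and both stood higher in Mettl3 knockdown at 0 h. Immediate-early genes are switched on within minutes of a growth or stress signal, and their mRNAs turn over fast. In the list 9 of 52 tested members were lower (17.3%) and 4 were higher (7.69%), beside 1.01% and 2.46% of all tested genes. The median interaction of the list was -0.11. The lower count was 5 without scramble 0 h replicate 2, between 6 and 10 without any other array, and 3 with the 8 arrays alone.

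Ccn1, a secreted matrix protein induced by growth factors and YAP, read 11.40 and 11.57 at 0 h and 8.26 and 8.22 at 8 h in Mettl3 knockdown, against 9.48 and 9.18 at 0 h and 7.90 and 7.74 at 8 h in scramble. Its knockdown arrays were above the scramble arrays at both times, by 2.16 at 0 h and 0.42 at 8 h. The interaction of -1.74 ± 0.13 (adjusted p = 7.45e-05) was the lowest among the named genes, with 10.5% of the 0 h level left in Mettl3 knockdown and 35.1% in scramble.

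Jun, a subunit of the AP-1 transcription factor, read 9.59 and 9.71 at 0 h and 8.71 and 8.70 at 8 h in Mettl3 knockdown, against 8.08 and 8.05 at 0 h and 8.63 and 8.47 at 8 h in scramble. The 2 groups moved in opposite directions and lay 1.59 apart at 0 h and 0.15 apart at 8 h (interaction -1.43 ± 0.13, adjusted p = 0.00029). Ier3, an early response gene linked to cell survival, read 9.15 and 9.12 at 0 h and 7.79 and 7.69 at 8 h in Mettl3 knockdown, against 8.19 and 8.01 at 0 h and 7.57 and 7.55 at 8 h in scramble. Its distance from scramble was 1.03 at 0 h and 0.18 at 8 h (-0.85 ± 0.09, adjusted p = 0.000598).

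The other lower members, most of them named after their values were seen, were Fosl2 (-0.57), Btg2 (-0.51), Gadd45g (-0.60), Ccn2 (-0.65), Dusp1 (-0.65) and Tnfaip3 (-0.82). Fosl2 is an AP-1 partner of Jun, Dusp1 a phosphatase of MAP kinases, and Tnfaip3 an inhibitor of NF-kappaB signalling. The mean of its probe sets took Ccn2 to -0.25 and below the threshold. Btg2 lost its call in 5 of the 8 fits without an array. Fos (-0.70, adjusted p = 0.127) and Egr1 (-0.48, adjusted p = 0.0801) did not pass. The higher members were Mycn, Mcl1 (0.55), Id2 and Socs3, so the list did not move in a single direction.

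For the 3 immediate-early genes described in full, each with a lower interaction, the 250 bases before their RefSeq starts are shown. They are from build GRCm38.p6 and given 5′ to 3′ on the strand of the gene. The windows are chr3:145649986-145650235 on the minus strand for Ccn1, chr4:95052223-95052472 on the minus strand for Jun and chr17:35821463-35821712 on the plus strand for Ier3. Capitals mark matches on either strand to TGACTCA (AP-1 site), TGACGTCA (cyclic AMP response element), TGACATCA (an AP-1 variant), TATAAA or CCAAT, letters chosen with these windows in view.
Ccn1: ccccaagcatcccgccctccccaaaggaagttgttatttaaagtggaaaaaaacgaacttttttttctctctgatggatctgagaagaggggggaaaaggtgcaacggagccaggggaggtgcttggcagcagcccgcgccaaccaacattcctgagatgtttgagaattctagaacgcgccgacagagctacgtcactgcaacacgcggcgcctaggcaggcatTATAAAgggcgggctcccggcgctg
Jun: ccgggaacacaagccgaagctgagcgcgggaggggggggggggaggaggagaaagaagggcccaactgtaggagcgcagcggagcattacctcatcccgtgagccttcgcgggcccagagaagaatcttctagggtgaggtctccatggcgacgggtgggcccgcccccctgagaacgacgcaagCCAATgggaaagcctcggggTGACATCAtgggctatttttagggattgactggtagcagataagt
Ier3: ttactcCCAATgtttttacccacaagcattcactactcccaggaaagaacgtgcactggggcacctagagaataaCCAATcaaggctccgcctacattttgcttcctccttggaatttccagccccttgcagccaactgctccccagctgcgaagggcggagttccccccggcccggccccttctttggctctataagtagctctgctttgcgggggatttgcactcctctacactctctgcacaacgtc

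The Ccn1 window held TATAAA starting 25 bases before the start. This match was found in 13% of 27025 promoter windows and in 7.11% of the 11545 windows of tested genes. In the Jun window TGACATCA began 45 bases and CCAAT 65 bases before the start. These were found in 3.02% and 34.5% of all windows, and in 1.59% and 35.9% of those of tested genes. Ier3 held CCAAT at 244 and 175 bases before its start. None of the 3 windows held TGACTCA (4.43% of all windows and 3.07% of those of tested genes) or TGACGTCA (1.62% and 2.56%). These matches describe letters in the windows and not binding.

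Irs1 and Irs2 are the adaptors that carry insulin and IGF receptor signals to PI3 kinase. They were the 2 lower genes among 14 tested of the IGF system (14.3%, beside 1.01% of all tested genes). Irs2 read 10.34 and 10.34 at 0 h and 8.39 and 8.12 at 8 h in Mettl3 knockdown, against 8.21 and 8.28 at 0 h and 7.42 and 7.37 at 8 h in scramble. The knockdown arrays stayed above the scramble arrays, by 2.09 at 0 h and 0.86 at 8 h (interaction -1.23 ± 0.17, adjusted p = 0.00311). Irs1 read 7.22 and 7.22 at 0 h and 6.66 and 6.43 at 8 h in Mettl3 knockdown, against 5.74 and 6.15 at 0 h and 6.46 and 6.32 at 8 h in scramble (-1.12 ± 0.19, adjusted p = 0.00837). Its groups were apart at 0 h, and at 8 h the ranges overlapped. The ligand Igf2 and the binding protein Igfbp3 had 0.04 each, with adjusted p of 0.9 and 0.893, although both stood higher in Mettl3 knockdown at 0 h (0.67 and 1.85) and at 8 h (0.71 and 1.88).

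Further lower genes narrowed from above. Phlda1, an FGF and ERK response gene, had -1.01 ± 0.21 (adjusted p = 0.0207), with a difference of 1.53 at 0 h and 0.52 at 8 h. Its call was lost in 5 of the 8 fits without an array. Of the primed epiblast list 2 of 16 tested members were lower (12.5%, beside 1.01% of all tested genes). They were Zic2 (-0.70 ± 0.10, adjusted p = 0.00429), a transcription factor of primed cells and neural tissue, and Pou3f1 (-0.54 ± 0.13, adjusted p = 0.0401), a POU factor. Pou3f1 lost its call in 7 of the 8 fits without an array. Fgf5, the usual marker of primed cells, read 8.18 and 8.21 at 0 h and 8.31 and 8.54 at 8 h in Mettl3 knockdown, against 5.86 and 5.62 at 0 h and 5.73 and 5.39 at 8 h in scramble, and its interaction of 0.41 did not pass (adjusted p = 0.219). Efna5, an ephrin ligand, had a change of -0.13 in Mettl3 knockdown and of 0.83 in scramble (-0.96 ± 0.22, adjusted p = 0.0325), a call lost in 6 of the 8 fits without an array.

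In the YAP and matrix list 3 of 23 tested genes were lower (13%, beside 1.01% of all tested genes). These were Ccn1, Ccn2 and Amotl2 (-0.57), an angiomotin that restrains YAP. Zfp608 and Hivep2, both zinc finger genes, had -1.18 ± 0.22 and -1.14 ± 0.24. They were higher in Mettl3 knockdown at 0 h by 1.82 and 1.57, and their scramble changes were 0.01 and 0.06. Zfp608 lost its call without Mettl3 knockdown 8 h replicate 1 and Hivep2 in 5 of the 8 fits without an array. Pxdc1, a PX-domain gene, had -0.88 ± 0.14 (adjusted p = 0.0059).

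Other lower genes separated from scramble with time. Serpinb9b, a serine protease inhibitor, read 9.56 and 9.32 at 0 h and 7.71 and 7.40 at 8 h in Mettl3 knockdown, against 9.86 and 9.85 at 0 h and 9.03 and 8.91 at 8 h in scramble. The knockdown arrays lay below the scramble arrays at both times, with differences of -0.41 at 0 h and -1.42 at 8 h (interaction -1.0 ± 0.16, adjusted p = 0.00642). Eed, the Polycomb subunit that recognises methylated histone H3, read 10.88 and 10.83 at 0 h and 10.02 and 10.03 at 8 h in Mettl3 knockdown, against 11.53 and 11.49 at 0 h and 11.14 and 11.21 at 8 h in scramble (-0.49 ± 0.06, adjusted p = 0.00196). Mrps22, a subunit of the small mitochondrial ribosome, had -0.69 ± 0.11 (adjusted p = 0.00802), while the mitochondrial ribosome genes Mrps2, Mrpl51 and Mrps34 were higher (0.49, 0.47 and 0.54).

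Mitosis genes had 4 of 43 tested members lower (9.3%, beside 1.01% of all tested genes) and none higher, with a median interaction of -0.07. The 4 were the anaphase-promoting activator Fzr1 (-0.36), the spindle midzone protein Prc1 (-0.40), the motor Kif11 (-0.30) and cyclin A2, Ccna2 (-0.30). The count was 0 without Mettl3 knockdown 0 h replicate 1 or scramble 0 h replicate 1, 1 without Mettl3 knockdown 8 h replicate 1, scramble 0 h replicate 2 or scramble 8 h replicate 2, and 2 without scramble 8 h replicate 1. It was 0 with long-lived transcripts as the scale. S-phase genes had no call among 41 tested.

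The p53 target list had 5 of 24 tested members higher (20.8%) and 1 lower (4.17%), beside 2.46% and 1.01% of all tested genes. Its lower member was Btg2. Mdm2, the ubiquitin ligase that restrains p53, read 11.30 and 11.23 at 0 h and 10.50 and 10.27 at 8 h in Mettl3 knockdown, against 10.80 and 10.91 at 0 h and 9.45 and 9.28 at 8 h in scramble. It was above scramble at both times, by 0.41 at 0 h and 1.02 at 8 h (0.61 ± 0.11, adjusted p = 0.0131), whereas its 0 h difference in the repeat set was -0.18. The death receptor Tnfrsf10b had 0.71 ± 0.10 (adjusted p = 0.00292) and the stress gene Trp53inp1 0.36 ± 0.07 (adjusted p = 0.0185). Tigar (0.48) and Aen (0.40) completed the higher members, whereas the cell cycle inhibitor Cdkn1a did not pass (-0.37, adjusted p = 0.237). The higher count was 1 without scramble 0 h replicate 2, 2 without Mettl3 knockdown 8 h replicate 2, scramble 0 h replicate 1 or scramble 8 h replicate 2, and 3 without Mettl3 knockdown 8 h replicate 1. It was 0 with the 8 arrays alone and 9 with long-lived transcripts as the scale.

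Among 33 tested genes of the ATF4 and unfolded protein response, Herpud1 and Atf4 were higher (6.06%, beside 2.46% of all tested genes). Herpud1, a component of endoplasmic reticulum protein disposal, read 8.75 and 8.78 at 0 h and 8.35 and 8.26 at 8 h in Mettl3 knockdown, against 9.23 and 9.18 at 0 h and 7.85 and 7.77 at 8 h in scramble. The order of the groups turned round, with differences from scramble of -0.44 at 0 h and 0.50 at 8 h (0.94 ± 0.09, adjusted p = 0.00029). Atf4, the stress-induced transcription factor, had 0.73 ± 0.12 (adjusted p = 0.0062). Its difference from scramble was -0.73 at 0 h and 0.00 at 8 h. The repeat set gave Atf4 a 0 h difference of 0.17, which did not pass (adjusted p = 0.0768 in limma).

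A few members of other lists passed, beside 2.46% higher and 1.01% lower over all tested genes. The Bcl2 and apoptosis list had 2 of 27 tested members higher (7.41%), Mcl1 and Tnfrsf10b. The sterol list had 1 of 24 higher (4.17%), and the interferon list had 1 of 19 lower (5.26%). The keratin and epithelium list had 1 of 25 higher (4%) and 2 lower (8%). Mcl1, an anti-apoptotic member of the Bcl2 family, had 0.55 ± 0.07, and Tmem97, a sterol-regulated membrane protein, had 0.72 ± 0.10. Both lost their calls with the 8 arrays alone, and Mcl1 also with the mean of its probe sets. The tight junction genes Cldn4 (0.63 ± 0.10) and Ocln (-0.48 ± 0.09) moved oppositely, and both were higher in Mettl3 knockdown at 0 h, by 1.09 and 1.44. Krt8, a simple epithelial keratin, read 12.63 and 12.56 at 0 h and 12.72 and 12.69 at 8 h in Mettl3 knockdown, against 10.05 and 10.12 at 0 h and 10.58 and 10.62 at 8 h in scramble (-0.40 ± 0.07, adjusted p = 0.00837). Its groups were over 2 log2 units apart throughout. Irf1, an interferon response factor, had -0.78 ± 0.09 (adjusted p = 0.00122), with a difference of 0.81 at 0 h and 0.03 at 8 h.

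The large families were counted beside 2.46% higher and 1.01% lower over all tested genes. Zfp-named zinc finger genes had 10 of 319 higher (3.13%) and 4 lower (1.25%), and solute carriers had 10 of 268 higher (3.73%) and 0 lower. The higher Zfp count was 2 without Mettl3 knockdown 0 h replicate 1 or Mettl3 knockdown 8 h replicate 1, 3 without scramble 0 h replicate 1 or scramble 8 h replicate 2, and 19 without scramble 8 h replicate 1. The lower Zfp count was 0 without Mettl3 knockdown 8 h replicate 1 and 2 without Mettl3 knockdown 0 h replicate 1, either scramble 0 h array or scramble 8 h replicate 2. The higher solute carrier count was 2 without scramble 0 h replicate 1 or scramble 8 h replicate 2, 3 without Mettl3 knockdown 0 h replicate 2 or Mettl3 knockdown 8 h replicate 1, 4 without scramble 0 h replicate 2 and 5 without Mettl3 knockdown 0 h replicate 1. Both higher counts were 0 with the 8 arrays alone, and they were 40 and 29 with long-lived transcripts as the scale, so neither family had a settled count. No member passed in 13 of the 42 lists. These held 62 oxidative phosphorylation genes, 65 cytosolic ribosomal protein genes, 38 long-lived transcripts, 32 proteasome genes, 22 endoderm genes and 22 Nodal and TGF-beta genes. Actb and Gapdh, common housekeeping genes, had 0.01 and -0.01. The lists overlap, so a gene such as Btg2 or Id2 counts in several of them.

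**Figure D3:**
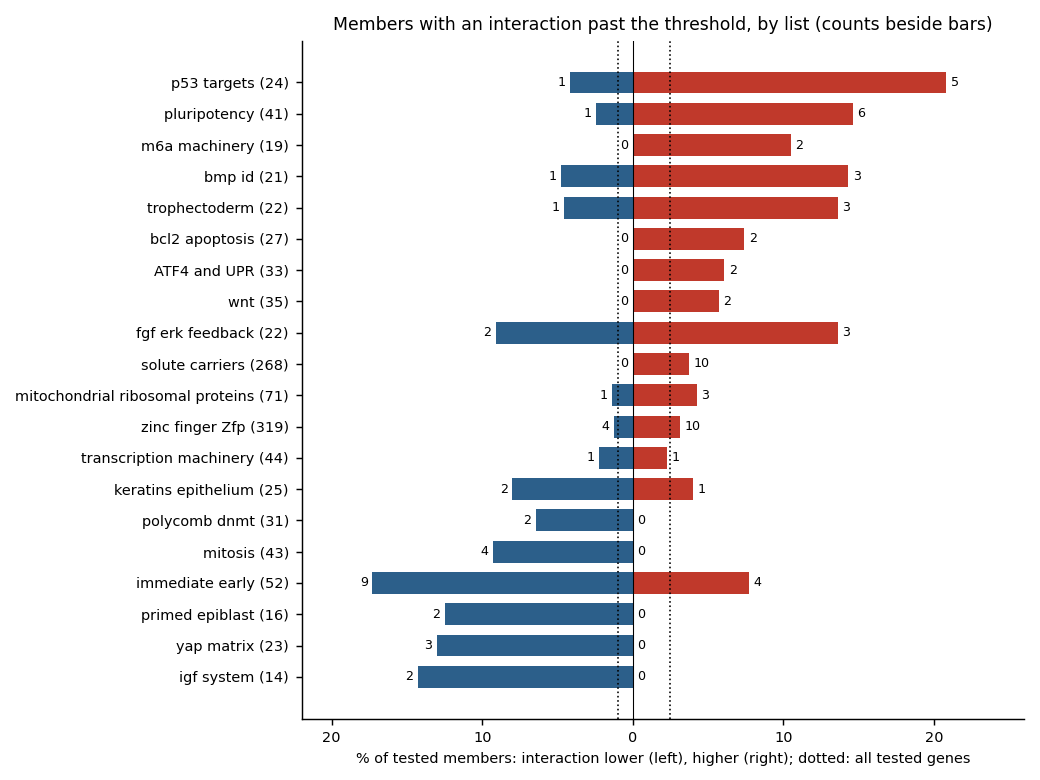
Share of tested members of each list with a higher (red, right) or lower (blue, left) interaction, for the lists with 2 or more calls; numbers beside bars are counts, numbers in brackets are members tested, and dotted lines mark 2.46% higher and 1.01% lower over all tested genes. The p53 and pluripotency lists reach furthest to the right and the immediate-early list furthest to the left.

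Over all calls, the distance between the groups more often widened than narrowed among higher genes. At 8 h the absolute difference between Mettl3 knockdown and scramble was larger than at 0 h in 290 of the 364 higher genes and smaller in 74. The genes were called on how this difference changed between the times, and no such count was made over all tested genes. The counts of widening and narrowing therefore describe the called genes and are no separate evidence. Of the 364, 153 differed at 8 h without a call at 0 h, 124 were above scramble at both times, and 48 were below scramble at 0 h with no call at 8 h. Among the 149 lower genes 85 widened and 64 narrowed, and 32 were above scramble at both times. At 8 h both knockdown arrays were above both scramble arrays in 316 of the 364 higher genes and below them in 98 of the 149 lower genes. Over all 14787 tested genes they were above in 5118 and below in 5178, and the 8 h arrays are part of the interaction, so these counts are a description. In 40 genes, all with an interaction call, the knockdown was on opposite sides of scramble at 0 h and 8 h, with both differences past the threshold.

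The 4 h arrays placed these changes in time. At 4 h the same contrast had 2 genes higher (0.0135%) and 7 lower (0.0473%), and 1252 genes had an unadjusted p below 0.05. The higher genes were Herpud1 (0.74) and 1810055G02Rik (0.61), and the lower ones were Ccn1 (-1.73), Jun (-1.20), Ier3 (-1.10), Lratd1 (-0.82), Dusp5 (-0.81), Tnf (-0.74) and Irf1 (-0.72). For Ccn1 the 4 h value was close to its 8 h value of -1.74, since its level at 4 h was 8.34 and 8.23 in Mettl3 knockdown and 7.90 and 7.83 in scramble, near the levels at 8 h. By contrast Nanp read 7.82 and 7.51 at 4 h in Mettl3 knockdown and 6.94 and 6.80 in scramble, part of the way to its values at 8 h. Over the 364 higher genes the median difference from scramble was 0.04 at 0 h, 0.29 at 4 h and 0.59 at 8 h, and over the 149 lower genes it was 0.23, -0.05 and -0.31. At least 50% of the 8 h interaction was present by 4 h in 132 of the higher genes and 93 of the lower ones. The 4 h and 8 h interactions share their 0 h arrays.

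**Figure D4:**
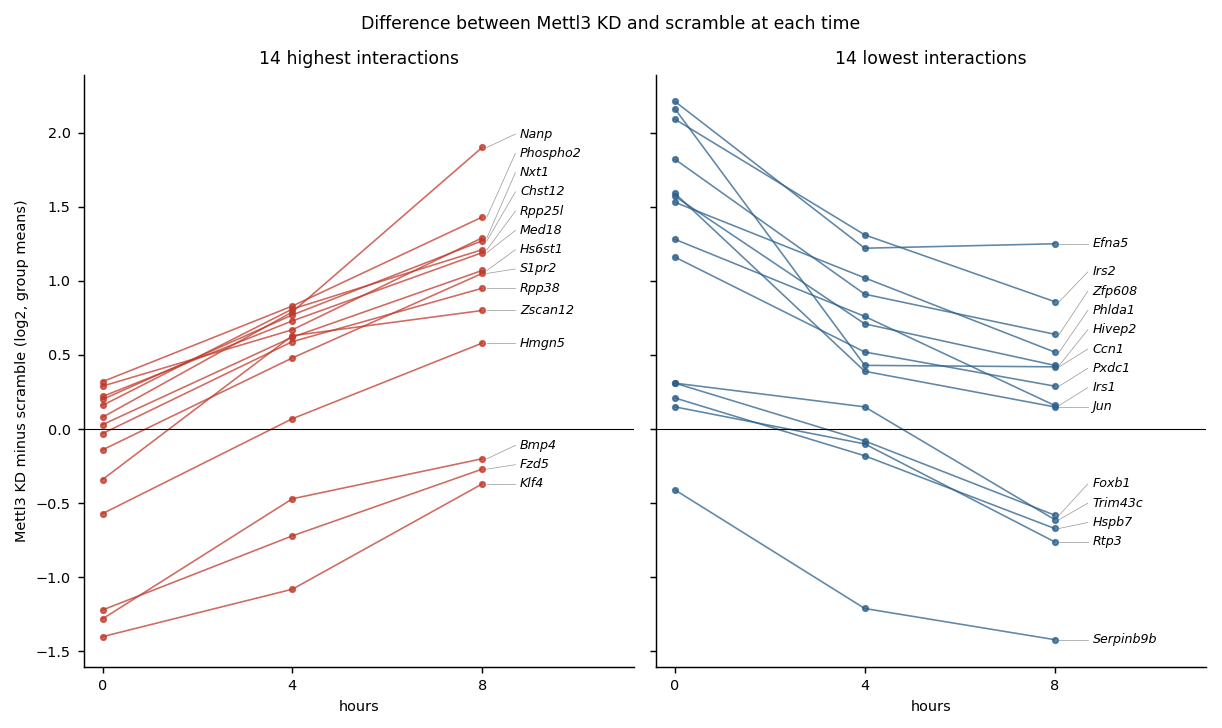
Mettl3 knockdown minus scramble (log2, difference of group means) at 0, 4 and 8 h for the 14 highest and the 14 lowest interactions among the named genes; each line is a gene. Klf4, Bmp4 and Fzd5 rise toward 0 from below while the other highest genes rise above 0 or further above it, and 9 of the lowest genes descend toward 0 from above while Serpinb9b, Rtp3, Hspb7, Trim43c and Foxb1 end below it.

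Some of the genes that ended below scramble started slightly above it and had low signal. Rtp3, which encodes a receptor transport protein, had -0.91 ± 0.17, and the small heat shock gene Hspb7 had -0.88 ± 0.16. Hspb7 read 6.67 and 6.32 at 0 h and 6.35 and 6.40 at 8 h in Mettl3 knockdown, against 6.35 and 6.22 at 0 h and 6.99 and 7.10 at 8 h in scramble. Its groups overlapped at 0 h and were apart at 8 h, after a rise in scramble. Foxb1, a forkhead factor, and Trim43c had -0.89 ± 0.20 and -0.93 ± 0.19, and they lost their calls in 5 and 6 of the 8 fits without an array. Pax7, the paired-box factor of neural crest and muscle, had -0.69 ± 0.16 and lost its call in 7 of those fits.

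The Mettl14 knockdown arrays of the same time course gave a similar contrast that shares the 4 scramble arrays, so the values stand side by side without a measure of likeness. With Mettl14 knockdown 530 genes were higher (3.58%) and 208 lower (1.41%). The interaction was 1.19 with Mettl3 and 1.25 with Mettl14 knockdown for S1pr2, 1.03 and 1.02 for Klf4, 0.74 and 0.62 for Wtap, -1.74 and -2.02 for Ccn1, -1.43 and -1.52 for Jun, and -1.23 and -1.29 for Irs2. Mdm2 had 0.61 with Mettl3 and 0.12 with Mettl14 knockdown (adjusted p = 0.616), and Serpinb9b had -1.0 and -0.12 (adjusted p = 0.743). The 8 h change itself can be set between the knockdowns without the scramble arrays: no gene passed in limma, and 798 genes had an unadjusted p below 0.05, 337 higher and 461 lower in Mettl3 knockdown. Differences between the knockdowns for Mdm2 or Serpinb9b were therefore not shown.

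The repeat set has no 8 h arrays and could address the starting levels alone. At 0 h Mettl3 knockdown differed from its scramble control by 1.22 for Ccn1, 0.75 for Jun, 0.64 for Ier3, 1.13 for Irs2, -0.74 for Klf4, -0.52 for Klf2, -0.87 for Fgf4 and -0.63 for Bmp4, each with an adjusted p of at most 0.000496 in limma. In the time course these 0 h differences were 2.16, 1.59, 1.03, 2.09, -1.40, -1.08, -0.78 and -1.28. Some starting differences of the time course did not pass in the repeat set, among them those of Atf4, Irf1 and Smad6. They were -0.73, 0.81 and -0.65 in the time course. In the repeat set they were 0.17, 0.16 and -0.06 (adjusted p = 0.0768, 0.0789 and 0.602 in limma). Among the named genes 4 differed from scramble at 0 h in both sets but in opposite directions. Herpud1 had 0.48 in the repeat set (adjusted p = 0.000332) and -0.44 in the time course (adjusted p = 0.000143). Trp53inp1 had -0.37 in the repeat set (adjusted p = 0.000657) and 0.87 in the time course, and Mdm2 had -0.18 (adjusted p = 0.015) and 0.41. Slc19a2, a thiamine transporter gene with an interaction of 0.53, had -0.62 in the repeat set (adjusted p = 0.00012) and 0.31 in the time course.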

How the data were processed

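The values analysed were the deposited log2 values of 26 Affymetrix Mouse Gene 2.0 ST arrays, which the authors computed by RMA with oligo (source: per the submitters' processing notes). Versions are not given in the sources used here. RMA corrects background, gives the probe values of all arrays the same distribution and then summarises probes. No count or depth exists, and the number of arrays limits the precision. Of 41345 probe sets, 23521 were listed with 1 gene symbol and 1814 with several, and 16010 were not listed in the platform annotation used. The brightest probe set stood for each of 22180 genes, and the 7393 dimmest genes were left out, which left 14787.

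The linear models of limma 3.58.1 (R 4.3.3, moderated by eBayes, two-sided, Benjamini-Hochberg over all 14787 genes, threshold 0.05) were fitted to the 18 time course arrays in 9 groups, giving 9 residual degrees of freedom. The repeat set of 8 arrays was fitted separately. Standard errors are those of limma. The fit was tested on simulated data with noise drawn separately for each gene and array. That test does not cover deviations that many genes of an array share. Percentages of a 0 h level are powers of 2 of fitted log2 changes. Promoter windows and siRNA sites came from RefSeq (GRCm38.p6) and the labels.

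Named genes were the 14 highest and 14 lowest interactions among passing genes, outside predicted, clone-named, small RNA, olfactory and vomeronasal genes, the 3 passing members lowest in adjusted p from each list, all tested m6A genes, and fixed genes of interest. Other list members were named after their values were seen. Members and lists were chosen with earlier results of these data known. Replicate numbers did not pair the samples: deviations of equal numbers correlated between groups with r from -0.44 to 0.34, and 12 of 36 pairs exceeded 0.1. Alternatives covered the filter, probe set choice, variance model, array weights, replicate block, arrays fitted, scaling and each array left out.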

Additional observations from a re-analysis of the deposited data

Results flagged for a closer look

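In 3 named genes the difference between Mettl3 knockdown and scramble passed the threshold at 0 h and again at 8 h with the opposite sign. The values are log2 differences, the test is the interaction in limma, and 2 arrays a group are too few for a search for outlying arrays. Herpud1 differed by -0.44 at 0 h and by 0.50 at 8 h, an interaction of 0.94, which passed in each of the 18 alternative fits. In the repeat set its 0 h difference was 0.48, opposite to that of the time course. Hmgn5, which encodes a nucleosome-binding protein, differed by -0.57 at 0 h and by 0.58 at 8 h, an interaction of 1.16. Its level was 6.55 and 6.87 at 0 h and 7.99 and 7.93 at 8 h in Mettl3 knockdown, against 7.30 and 7.27 at 0 h and 7.49 and 7.27 at 8 h in scramble, and the call was lost in 6 of the 8 fits without an array. Zfp660, a zinc finger gene, differed by 0.36 at 0 h and by -0.29 at 8 h, an interaction of -0.65. Its call was lost without Mettl3 knockdown 8 h replicate 1.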

How the results depend on the processing

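The main counts were 364 higher and 149 lower interactions, 5463 rises and 2832 falls in Mettl3 knockdown, and 5799 rises and 3197 falls in scramble. The interaction counts were 181 and 70 with no filter on dim genes, 46 and 8 with the 8 arrays alone, and 666 and 306 in a fit over all 26 arrays. With trend and robust eBayes there were 545 and 244. Setting long-lived transcripts to an equal median gave 1045 and 84, with 2612 rises and 4443 falls in Mettl3 knockdown and 1275 rises and 5760 falls in scramble. Quantile normalization again gave 272 and 187. Leaving out each of the 8 arrays gave 166 to 479 higher and 56 to 154 lower interactions, with the lone array of its group assumed to vary like the others. In those fits Mettl3 knockdown had 4445 to 5454 rises and 2444 to 2833 falls, and scramble 4577 to 5803 rises and 2805 to 3208 falls. With the replicate block there were 348 and 130 interactions, 320 and 124 of them shared with the main fit. Of 75 named genes with a call, 40 kept it without each array in turn and 16 with the 8 arrays alone, and no named call changed sign, although the fit of the 8 arrays alone leaves the values as they were. A kept sign is no separate evidence, since the calls came from the same arrays. Counts within lists moved by more than 1.5 times in 299 of 1044 cases. The causes were not tested.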

Other observations

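Genes that build glycans formed a group that no list covered, and it was chosen after their values were seen, so it has no test. Of 102 tested sulfotransferases, glycosyltransferases and related enzymes, 13 had a higher interaction (12.7%) and 1 a lower one, beside 2.46% and 1.01% of all tested genes. The median interaction of the 102 was 0.18, with a median change of 0.10 in Mettl3 knockdown and -0.02 in scramble. Beside Hs6st1 and Chst12, the higher genes included A4galt (0.88 ± 0.16), which makes the globo-series glycolipid core, and Mgat2 (0.82 ± 0.13), which branches N-glycans. Glce (0.66 ± 0.12), the heparan sulfate epimerase, changed by -1.58 in Mettl3 knockdown and by -2.24 in scramble. Pomgnt2 (0.67), Pomk (0.54) and B4gat1 (0.73) act on the sugar chain of dystroglycan. The lower gene was St6gal2 (-0.44 ± 0.09), a sialyltransferase, while Nanp of sialic acid synthesis was the highest named gene.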
